A study of Mus musculus with 16 samples.

Results

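The 10 genes described here encode the constant regions of mouse immunoglobulins, the stretch of each antibody chain that is the same whatever the antigen. They were taken by symbol from the 57186 genes of the count table: the heavy chain genes Ighm, Ighd, Igha, Ighg1, Ighg2b, Ighg2c and Ighg3, the kappa light chain gene Igkc and the lambda genes Iglc1 and Iglc2. All 10 were found once, and all 10 passed the minimum of 100 counts over the 16 libraries that 25408 genes passed. Each library was made from the total kidney RNA of a male mouse on the C57BL/6J background, and all mice were Elmo1 H/H, which raises Elmo1 expression. Each of 4 groups held 4 libraries. Mice with Ins2 +/+ were non-diabetic and either untreated (ND_C) or given B12 (ND_B12), and mice with Ins2 Akita/+ were diabetic and either untreated (D_C) or given B12 (D_B12). The B12 groups drank vitamin B12 at 10 mg per kg daily, starting when 8 weeks old, for 8 weeks by the methods and 16 weeks by the labels. The Akita allele encodes a misfolding insulin, so the diabetes is one of insulin deficiency, and no group of the series had the usual Elmo1 dose.

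A B cell first makes IgM and IgD from one long transcript, using Ighm and Ighd, and after class switching it uses an IgG, IgE or IgA gene further along the locus. Each heavy chain transcript can end in a secreted tail, which gives soluble antibody, or run on into membrane exons, which give the B cell receptor. Resting B cells mainly carry the membrane form, whereas plasma cells fill with secreted heavy chain, light chain and J chain, and mouse light chains are mostly kappa. The kidney holds few lymphocytes, and transcripts of these genes there are usually taken to come from resident or passing B cells and plasma cells. In RNA of a whole tissue, fewer such cells and less RNA per cell cannot be told apart.

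The sequences on which the results turn are the ends of the coding region of IgM and IgA, since they separate antibody from receptor, and a stretch that separates the lambda genes. They were read from the GENCODE vM39 transcripts on GRCm39, 5′ to 3′ on the minus strand. In the heavy chains, the lower case letters are the last 30 bases that both forms share, and the capitals are the first 62 bases that only that form has. For IgM, the secreted capitals lie in the last shared constant exon, at chr12:113384487-113384548, and the membrane capitals in a separate exon at chr12:113382627-113382688.
Ighm-201, secreted: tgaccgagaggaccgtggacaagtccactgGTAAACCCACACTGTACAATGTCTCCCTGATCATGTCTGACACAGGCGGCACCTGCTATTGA
Ighm-202, membrane: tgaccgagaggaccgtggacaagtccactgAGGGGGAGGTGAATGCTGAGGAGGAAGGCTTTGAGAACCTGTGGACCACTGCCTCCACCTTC
For IgA, the secreted capitals lie at chr12:113222388-113222449 and the membrane capitals at chr12:113219956-113220017.
Igha-201, secreted: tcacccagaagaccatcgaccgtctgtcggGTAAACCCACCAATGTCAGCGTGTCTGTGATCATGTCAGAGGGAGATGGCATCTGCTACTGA
Igha-202, membrane: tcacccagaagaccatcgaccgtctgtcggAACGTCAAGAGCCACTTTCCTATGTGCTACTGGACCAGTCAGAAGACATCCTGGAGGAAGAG
Both secreted ends finish on a stop codon, while both membrane stretches read on. The forms of Ighm share 1305 coding bases, and 62 are left to the secreted and 125 to the membrane form. For Igha the shared coding length is 972 bases, with 62 secreted and 197 membrane bases beside it. Within the coding region few bases thus tell the forms apart, but whole transcripts differ by more. The last shared exon of Ighm has 521 bases in the secreted and 333 in the membrane form, which adds exons of 116 and 277 bases. Membrane Igha adds an exon of 1568 bases.

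The lambda genes are shown because Iglc2 and Iglc3 are near copies, which Iglc1 is not. The last 90 coding bases are given for Iglc1 at chr16:18880502-18880591, Iglc2 at chr16:19017286-19017375 and Iglc3, which is no member, at chr16:18884115-18884204. Capitals mark the letters that differ from Iglc2.
Iglc1: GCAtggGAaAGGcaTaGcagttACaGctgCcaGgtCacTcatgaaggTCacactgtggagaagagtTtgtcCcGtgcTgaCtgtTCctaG
Iglc2: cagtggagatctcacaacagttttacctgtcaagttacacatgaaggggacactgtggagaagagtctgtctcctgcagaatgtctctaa
Iglc3: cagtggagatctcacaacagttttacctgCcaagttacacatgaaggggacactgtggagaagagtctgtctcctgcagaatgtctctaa
Iglc1 differed from Iglc2 at 27 of the 90 bases and Iglc3 at 1. Over the whole coding region Iglc2 and Iglc3 were 96.2% identical, and 7.65% of the 50-base windows of Iglc2 occurred in another constant gene. The share was 0% for Ighm, Ighd, Igha, Igkc and Iglc1, 0.393% for Ighg1, 1.58% for Ighg3, 4.15% for Ighg2b and 5.49% for Ighg2c. Reads of Iglc2, and to a lesser degree of Ighg2b and Ighg2c, can therefore be split uncertainly between copies, and strand was not stated for the counting. Igkc (chr6:70703419-70703950) overlaps Gm30211 on its own strand and Gm68839 on the other, Iglc1 overlaps 2010309G21Rik on the opposite strand and Iglc2 overlaps the joining segment Iglj2.

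Library totals ran from 65271308 to 91771136 counts, and the kidney genes Umod (107494 to 208794), Slc34a1 (336801 to 456428) and Nphs1 (1500 to 2075) were abundant in all 16 libraries. These and the values that follow are normalized counts, the estimated counts divided by a median-of-ratios size factor, unless they are given per length. The label of a library did not always match: for 181 genes with group means given alongside the publication, the sets of 4 libraries closest to those means kept 5 libraries in their labelled group and moved 11. The match was near exact: the median absolute log2 difference was 0.000178 to 0.000263 for these sets, against 0.03996 to 0.302 for the labelled groups. The means given for D_C were matched by D_B12 1 to 4 (0.000222, against 0.296 for the libraries labelled D_C). Those given for D_B12 were matched by D_C 2 to 4 and ND_B12 4 (0.000197, against 0.302 for the libraries labelled D_B12). Of the 11 libraries, 2 also moved between diabetic and non-diabetic, D_C 1 and ND_B12 4. Groups were kept as labelled, so the direction of the B12 values in diabetic kidneys rests on the labels. Without that pair, the averaged log2 fold changes were −2.74 for Igkc, −2.21 for Igha, −2.69 for Ighm, −1.79 for Iglc1, −4.79 for Ighg1, −5.00 for Ighg3, −3.65 for Ighg2b, −3.32 for Ighg2c, −2.08 for Iglc2 and −0.17 for Ighd, and edgeR called all but Ighd. The library names also carry dates. The 8 non-diabetic libraries and D_C 1 fell on days 0 to 21 and the other 7 diabetic libraries on days 28 to 111, so that diabetes and date can be told apart only through D_C 1. A "call" below is an edgeR quasi-likelihood test with a Benjamini-Hochberg adjusted p below 0.05 over the 25408 genes.

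The kappa gene Igkc had the highest median level per length of the 10 genes in both non-diabetic and diabetic kidneys and was 5.26-fold lower in the diabetic ones. Its normalized counts were 11164, 3852, 3526 and 2561 in ND_C, 1786, 3781, 7359 and 2247 in ND_B12, 2048, 521.5, 685 and 1095 in D_C, and 643, 539.6, 593 and 888 in D_B12. Every D_C library lay below every ND_C library and every D_B12 library below every ND_B12 library, while D_C 1 lay above ND_B12 1. The means were 5276 ± 3964, 3793 ± 2526, 1088 ± 684 and 666 ± 154 in that order (SD, n = 4 each). Averaged over the treatments Igkc fell by 2.39 on the log2 scale (SE 0.37, edgeR adjusted p = 0.0116). By treatment, Igkc fell by 2.27 without B12 (SE 0.52, edgeR adjusted p = 0.0443) and by 2.51 with B12 (SE 0.53, edgeR adjusted p = 0.0427). The average call was kept in all 16 fits that left out 1 library. The untreated call was lost without ND_C 1, ND_C 2, ND_C 3, ND_B12 2, D_C 2, D_C 3, D_C 4 or D_B12 2 (edgeR adjusted p 0.0556 to 0.107). The B12-treated call was lost without ND_C 2, ND_C 3, ND_B12 2, ND_B12 3, D_C 3, D_C 4 or any D_B12 library (edgeR adjusted p 0.0534 to 0.141). Without ND_C 1 the untreated value was −1.61.

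**Figure D1:**
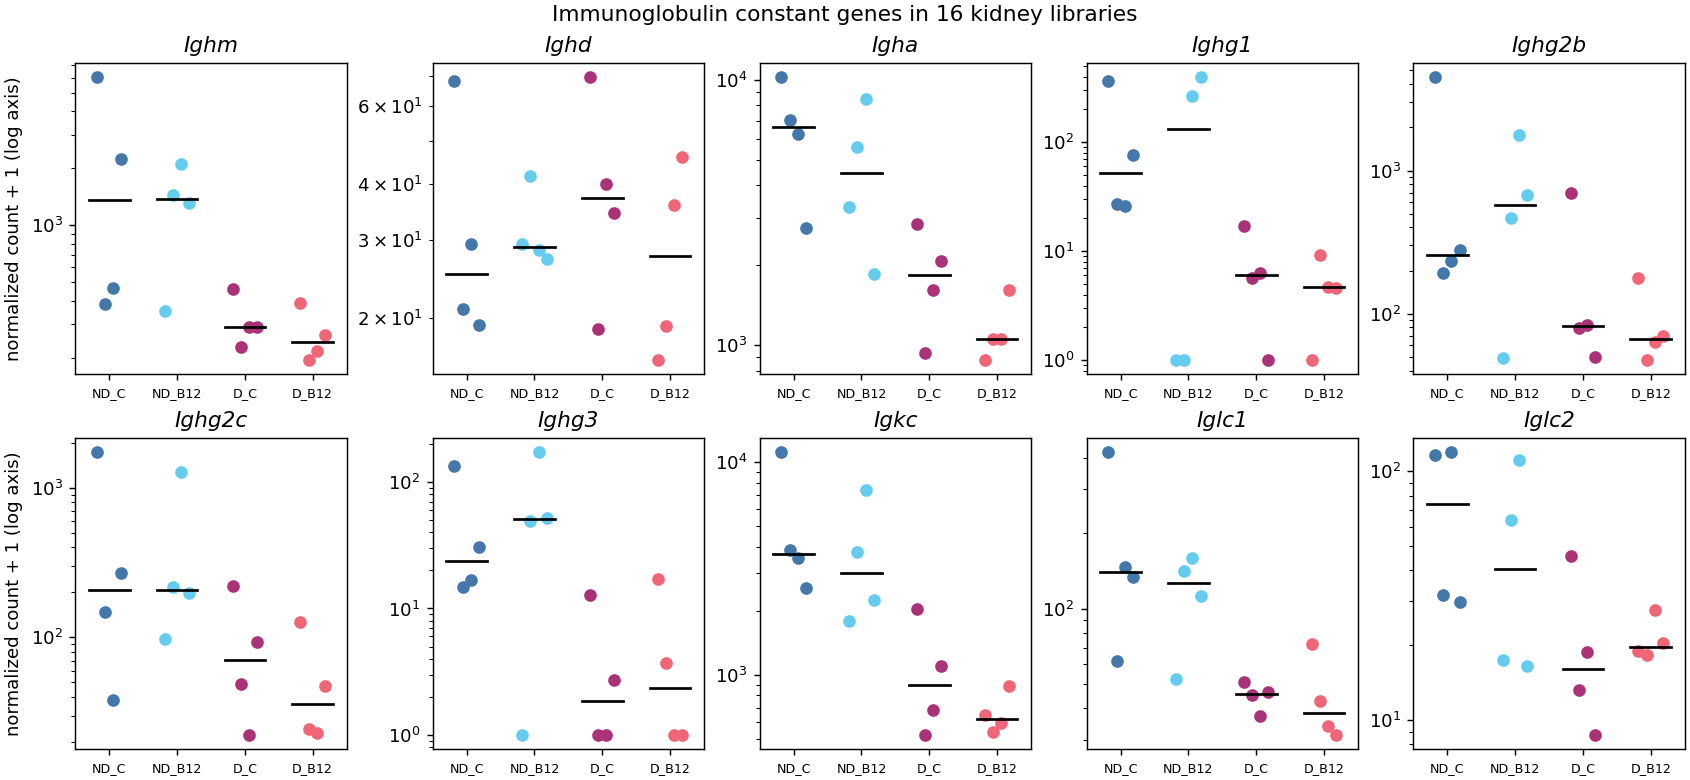
Normalized counts of the 10 immunoglobulin constant genes in the 16 kidney libraries, 1 panel a gene, on a log axis (count + 1), with a point for each library and a bar at the group median. The diabetic points of Igkc lie between 521.5 and 2048 and the non-diabetic points between 1786 and 11164, whereas the points of Ighd overlap fully.

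The lambda gene Iglc1 had far fewer counts, with 423, 60.6, 146 and 133 in ND_C, 51.3, 141, 159 and 111 in ND_B12, 49.98, 44.2, 36.4 and 45.5 in D_C, and 71.2, 41.7, 33.1 and 30.4 in D_B12. The untreated groups did not overlap, and the B12-treated ones overlapped through D_B12 1 and ND_B12 1. Iglc1 fell by 1.75 averaged over the treatments (SE 0.34, edgeR adjusted p = 0.0178) and by 2.11 without B12 (SE 0.48, edgeR adjusted p = 0.0436). In B12-treated kidneys it was no call, at −1.39 (SE 0.48, edgeR adjusted p = 0.154). The average call was kept in all 16 fits without 1 library. The untreated call was lost without ND_C 1, ND_C 2, ND_C 3, ND_B12 2, D_C 2, D_C 3, D_C 4 or D_B12 2 (edgeR adjusted p 0.0554 to 0.102), and the value without ND_C 1 was −1.37. Iglc2 ranged from 7.73 in D_C 4 to 119 in ND_C 3, and its averaged log2 fold change of −1.56 did not pass (SE 0.47, edgeR adjusted p = 0.0831). It passed without D_C 1 or without ND_B12 4.

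The first heavy chain gene of the locus, Ighm (chr12:113382178-113386350), encodes the mu chain of IgM. Its normalized counts were 6025, 384, 464 and 2240 in ND_C, 354, 1439, 2092 and 1311 in ND_B12, 462, 226, 289 and 290.4 in D_C, and 388, 193, 216 and 264 in D_B12. The non-diabetic libraries were split, with 5 of them between 1311 and 6025 and 3 between 354 and 464, of which ND_C 2 and ND_B12 1 lay within the diabetic range of 193 to 462. Averaged over the treatments Ighm fell by 2.57, or 5.93-fold (SE 0.50, edgeR adjusted p = 0.0178), and the call was kept in all 16 fits without 1 library. Within the untreated kidneys the value stood at −2.84 (SE 0.72, edgeR adjusted p = 0.0539), no call. Within the B12-treated ones it stood at −2.30 (SE 0.71, edgeR adjusted p = 0.115), also no call. The untreated comparison passed without ND_B12 1 or without D_C 1, and without ND_C 1 its value was −1.71 (edgeR adjusted p = 0.160).

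The next gene, Ighd (chr12:113370224-113379944), encodes the delta chain of IgD, which naive B cells carry beside IgM. It had 67.2, 19.9, 28.3 and 18.2 in ND_C, 28.4, 40.7, 27.4 and 26.1 in ND_B12, 68.6, 17.9, 39.1 and 33.5 in D_C, and 15.0, 18.1, 34.9 and 44.9 in D_B12. All 4 groups overlapped. Averaged over the treatments the log2 fold change stood at 0.06 (SE 0.33, edgeR adjusted p = 0.943). Over all libraries Ighd had 534 transcript counts of the membrane and 2 of the secreted form, so that 99.6% were membrane.

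The Ighm counts came from both forms shown above. The secreted form had 5498, 185, 386 and 1824 normalized counts in ND_C, 164, 1124, 1776 and 1075 in ND_B12, 147, 85.5, 16.9 and 49.0 in D_C, and 219.7, 80.7, 8.28 and 65.6 in D_B12. The membrane form had 527, 199, 78.2 and 416 in ND_C, 190.0, 316, 316 and 236 in ND_B12, 315, 141, 272 and 241 in D_C, and 168, 112, 208 and 198 in D_B12. The membrane form overlapped between all groups, with means of 305 ± 204, 264 ± 62.2, 242 ± 74.1 and 172 ± 42.9 (SD, n = 4 each). The secreted form had means of 1973, 1035, 74.7 and 93.6 in the same order. D_B12 1 lay above the non-diabetic ND_C 2 and ND_B12 1.

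The secreted share of Ighm per length was 92.2%, 51.4%, 84.9% and 83.3% in ND_C, 49.5%, 80.2%, 86.5% and 83.8% in ND_B12, 34.7%, 40.8%, 6.60% and 18.7% in D_C, and 59.7%, 44.9%, 4.33% and 27.4% in D_B12. The untreated groups did not overlap, and D_B12 1 lay above ND_B12 1 among the treated. The means of ND_C, ND_B12, D_C and D_B12 were 78.0% ± 18.1, 75.0% ± 17.2, 25.2% ± 15.5 and 34.1% ± 23.8 (SD, n = 4 each). Diabetic kidneys thus differed from non-diabetic ones by −52.7 percentage points without B12 and by −40.9 points with B12, and these differences are given as a description. Without D_C 1 the former was −55.9 points, and without ND_B12 4 the latter was −38.0 points. B12 differed from no B12 by −2.96 points in non-diabetic and by 8.87 points in diabetic kidneys, less than the spread within the groups. Diabetes and library date coincide for this share as for the counts.

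**Figure D2:**
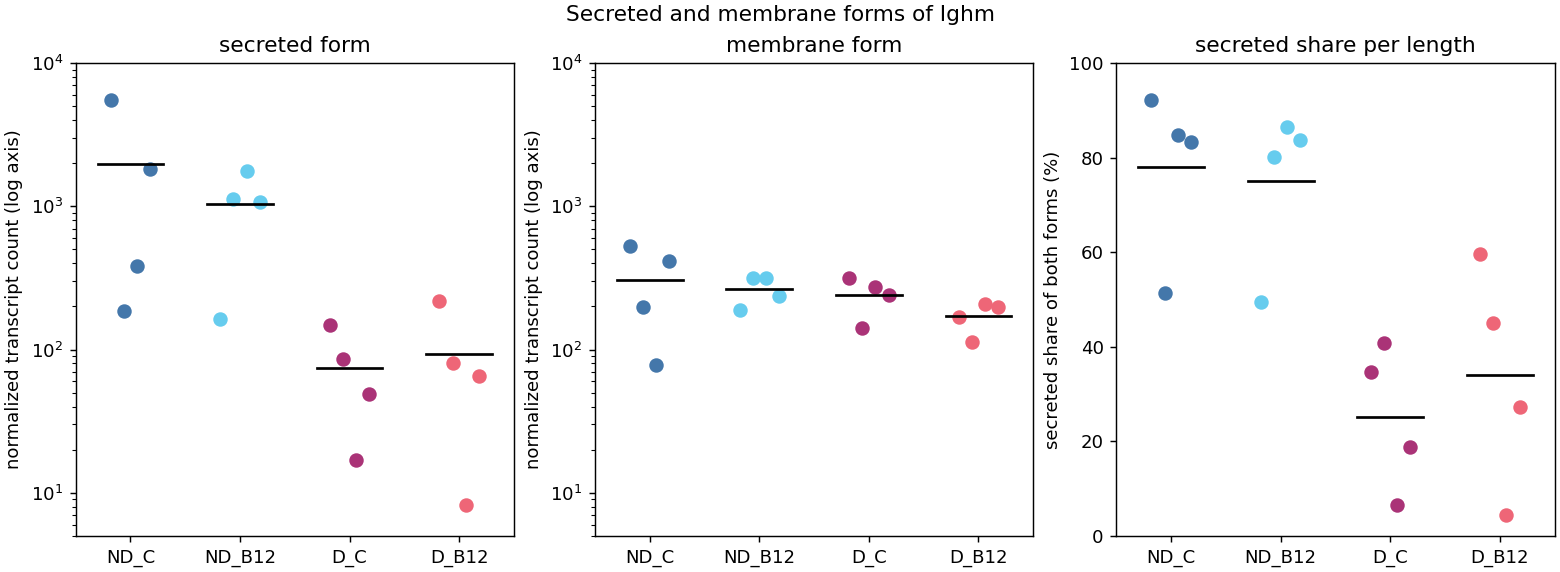
Normalized counts of the secreted and membrane transcripts of Ighm in each library on a log axis, and the secreted share per length in percent, with bars at the group means. The secreted form reaches 5498 in ND_C and 8.28 in D_B12, while the membrane form stays between 78.2 and 527.

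The precision of the secreted share followed the counts behind it. ND_C 1 had 5153 secreted of 5647 Ighm transcript counts, or 91.3% (95% Wilson interval 90.5 to 91.96), before length was divided out. D_B12 3 had 9 of 235, or 3.83% (2.03 to 7.12), and D_C 3 had 19 of 325, or 5.85% (3.77 to 8.95). The intervals cover counting error only. They leave out the assignment of reads to forms, which for these genes was sometimes all or none: Ighg2b in D_C 4 had 0 secreted and 57 membrane counts, Ighg2c in D_C 3 had 0 and 24, and Ighg1 in ND_C 3 had 0 and 22. A transcript-level edgeR fit over 66503 transcripts, added after the values were seen, called 0 transcripts averaged over the treatments, with 6760 at an unadjusted p below 0.05. In it the secreted Ighm transcript stood at a log2 fold change of −4.10 for diabetes (SE 0.84, edgeR adjusted p = 0.114). The membrane transcript had one of −0.48 (SE 0.32, edgeR adjusted p = 0.652).

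IgA is the main antibody of mucosal surfaces, and its gene Igha (chr12:113218450-113223856) had the most counts of the heavy chain genes in all 16 libraries. It had 10222, 7055, 6226 and 2767 in ND_C, 3315, 5565, 8486 and 1847 in ND_B12, 2847, 933, 1613 and 2075 in D_C, and 876, 1056, 1051 and 1609 in D_B12. The B12-treated groups did not overlap, and D_C 1 lay just above ND_C 4. Igha fell by 1.94 averaged over the treatments, or 3.84-fold (SE 0.32, edgeR adjusted p = 0.0117), and by 2.07 in B12-treated kidneys (SE 0.45, edgeR adjusted p = 0.0458). Without B12 the value stood at −1.81 (SE 0.44, edgeR adjusted p = 0.0504), and it passed without ND_C 4, ND_B12 1, ND_B12 3, ND_B12 4 or D_C 1. The average call was kept in all 16 fits without 1 library. The B12-treated call was lost without ND_C 1, ND_C 2, ND_C 3, any of ND_B12 1 to 3, D_C 3, D_C 4 or any D_B12 library (edgeR adjusted p 0.0562 to 0.146). Nearly all Igha counts were of the secreted form, 55229 against 294 of the membrane form over all libraries, and 98.3% to 100% per length in each.

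The IgG genes spread over a wide range between mice, and 1 library, ND_C 1, was the highest for Ighg2b and Ighg2c. Ighg2b had 4484, 191, 231 and 278 in ND_C, 48.0, 468, 1761 and 675 in ND_B12, 697, 78.9, 82.6 and 49.0 in D_C, and 177, 46.3, 62.5 and 69.2 in D_B12. Its groups overlapped in both comparisons, with D_C 1 far above the other D_C libraries, and its averaged log2 fold change of −2.78 was no call (SE 0.83, edgeR adjusted p = 0.0795). Without D_C 1 it was −3.63 and passed (edgeR adjusted p = 0.0197), whereas without ND_C 1 it was −1.54, and the untreated value, −2.50, was −0.04. Ighg2c, which stands in C57BL/6 mice where other strains have Ighg2a, had 1741, 146, 37.4 and 269.7 in ND_C, 97.2, 216, 1276 and 197 in ND_B12, 220.2, 47.9, 21.3 and 91.9 in D_C, and 125, 23.6, 22.1 and 46.2 in D_B12. It overlapped in both comparisons and averaged −2.78 on the log2 scale (SE 0.76, edgeR adjusted p = 0.0598), a value that passed without D_C 1 or without ND_B12 4 and was −1.85 without ND_C 1 (edgeR adjusted p = 0.137).

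The less abundant IgG genes were called on the average over treatments. Ighg1 had 365, 25.8, 24.9 and 75.8 in ND_C, 0, 0, 265 and 394 in ND_B12, 16.1, 4.7, 5.3 and 0 in D_C, and 0, 8.2, 3.7 and 3.6 in D_B12. The untreated groups did not overlap, but among the treated 2 ND_B12 libraries were at 0. Ighg1 fell by 4.77 averaged over the treatments (SE 1.09, edgeR adjusted p = 0.0301). This call was lost without ND_C 1, ND_B12 3, D_C 2, D_C 3, D_C 4, D_B12 1 or D_B12 3 (edgeR adjusted p 0.0579 to 0.0680), and the value without ND_C 1 was −4.00. Ighg3 had 134, 13.9, 15.9 and 29.8 in ND_C, 0, 48.6, 173 and 51.2 in ND_B12, 11.9, 0, 0 and 1.72 in D_C, and 16.0, 2.72, 0 and 0 in D_B12. It fell by 3.78 averaged over the treatments (SE 0.93, edgeR adjusted p = 0.0397), and the call was kept in 5 of the 16 fits without 1 library. It was lost without ND_C 1 to 3, ND_B12 2, ND_B12 3, D_C 2 to 4 or D_B12 2 to 4 (edgeR adjusted p 0.0550 to 0.0917). The averaged Ighg3 value was −3.14 without ND_C 1 and −4.94 without D_C 1, and with the library date as a covariate it was 0.47. Where a library was at 0, 3 counts is the limit that 0 allows, about 3 normalized counts, so the folds of both genes depend on very few reads.

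Across the 10 genes, diabetes was called in 2 in untreated kidneys, Igkc and Iglc1, where 0.728% of all genes tested were called lower. It was called in 2 in B12-treated kidneys, Igkc and Igha, against 0.563% of all genes. Averaged over the treatments 6 were called lower, Igkc, Igha, Ighm, Iglc1, Ighg1 and Ighg3, against 2.16% of all genes, and 0 higher. Of the 10, 9 had a log2 fold change below 0 on the average, with a median of −2.48 beside 0.0072 over all genes. Groups did not overlap, with diabetes lower, for 4 of the 10 in untreated kidneys (Igkc, Iglc1, Ighg1 and Ighg3) against 4.58% of all genes, and for 2 in B12-treated kidneys (Igkc and Igha) against 6.57%. With all 8 diabetic against all 8 non-diabetic libraries 0 of the 10 were free of overlap, against 0.331% of genes, and without D_C 1 the count was 1, Igkc, against 0.61%.

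**Figure D3:**
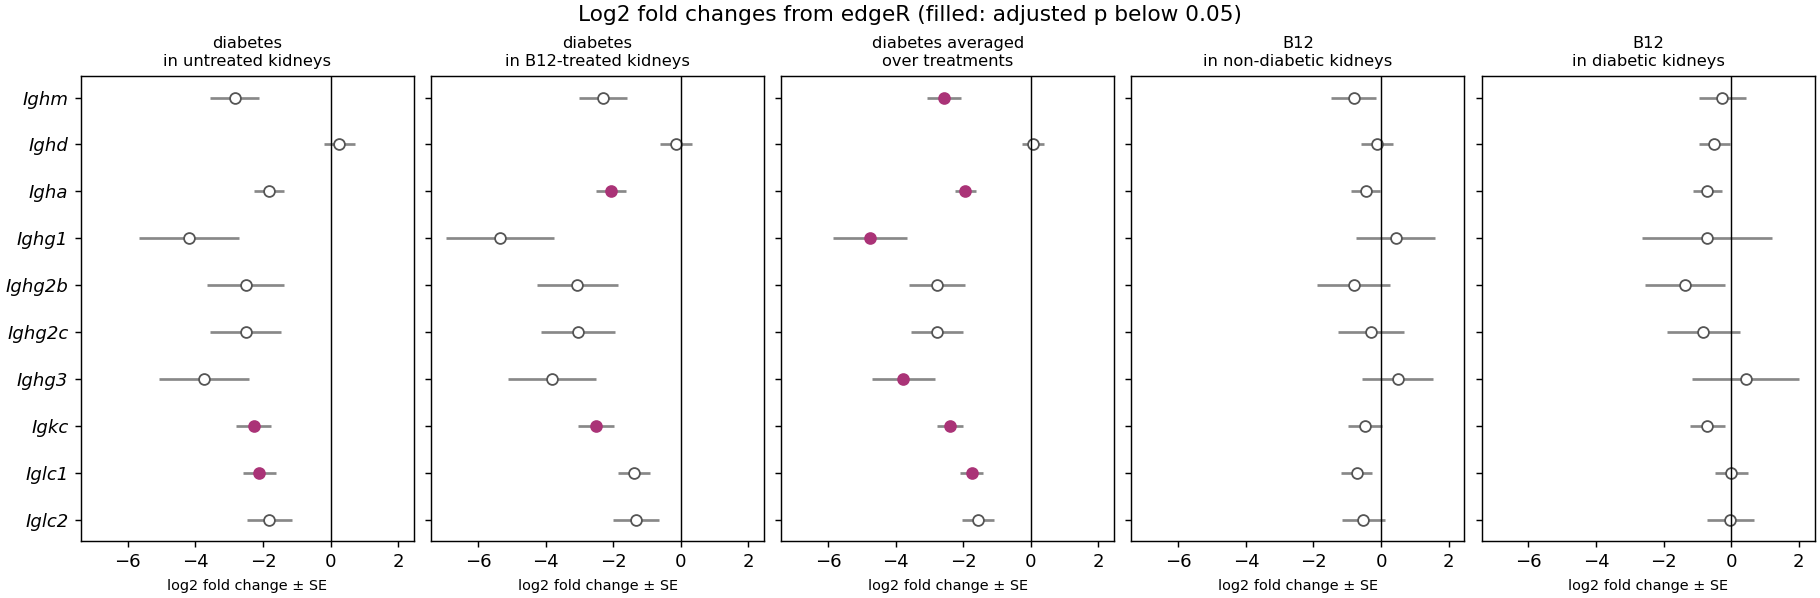
Log2 fold changes of the 10 genes in 5 comparisons, with bars of ± 1 SE from edgeR and filled points where the adjusted p was below 0.05. The diabetes values of all genes but Ighd lie between −5.34 and −1.31, and no point is filled in the B12 comparisons.

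B12 was called in 0 of the 10 genes by edgeR in non-diabetic and in diabetic kidneys, with 0 of them at an unadjusted p below 0.05 and 0 by DESeq2 in either. Over all 25408 genes edgeR also called 0 in either, so its 0 of 10 is nothing particular to these genes. DESeq2 called 6 of all genes in non-diabetic and 681 in diabetic kidneys. In non-diabetic kidneys the log2 fold changes of the 10 ran from −0.81 to 0.49 and 8 of 10 were below 0. In diabetic kidneys they ran from −1.36 for Ighg2b to 0.43 for Ighg3, with a median of −0.60 that was 0.055 without D_C 1. The interaction of diabetes and B12 was called in 0 of the 10 by edgeR and 0 by DESeq2, against 0 and 923 of all genes. With the groups as labelled, the diabetic B12 value was −0.71 for Igkc (SE 0.52, edgeR adjusted p = 0.592) and −0.70 for Igha (SE 0.44, edgeR adjusted p = 0.519). The standard errors of the IgG genes were larger, so a change of several fold was not detectable in them.

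Beside these results stands the date in the library names. With the date as a covariate in the edgeR fit, 0 of the 10 genes were called, and the averaged log2 fold changes were −1.98 for Igkc (edgeR adjusted p = 0.399), −2.05 for Igha (edgeR adjusted p = 0.323), −2.02 for Ighm (edgeR adjusted p = 0.521), −0.82 for Iglc1, −3.16 for Ighg1 and 0.47 for Ighg3, with standard errors of 0.76 to 2.94 for these 6. The median over the 10 genes was then −0.82, against −2.48 without the covariate. The one date with both kinds of library, 28 August, held ND_B12 2, 3 and 4 and D_C 1. Igkc was 3781, 7359 and 2247 in the former and 2048 in the latter, and Igha was 5565, 8486 and 1847 against 2847. On 21 August, with non-diabetic libraries only, Igkc was 2561 in ND_C 4 and 1786 in ND_B12 1. D_C 1 is also 1 of the 2 libraries that moved between diabetic and non-diabetic when matched to the published means. The part of the date in the result therefore cannot be told apart from that of diabetes.

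**Figure D4:**
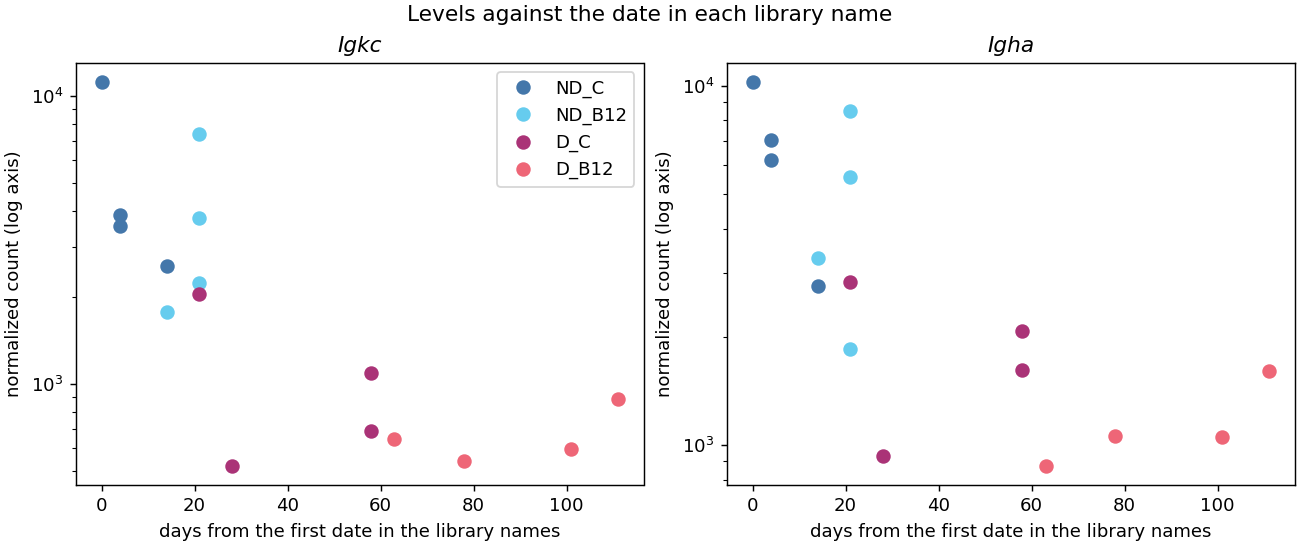
Normalized counts of Igkc and Igha, on log axes, against the days from the first date in the library names, coloured by group. The 8 non-diabetic libraries lie on days 0 to 21 and all diabetic libraries but D_C 1 on days 28 to 111.

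The isotype make-up was read from levels per length, the counts of each transcript per kb of its length, summed per gene. IgA made up 47.9%, 91.5%, 90.7% and 54.9% of heavy chain transcripts in ND_C, 89.1%, 75.7%, 63.0% and 44.8% in ND_B12, 68.7%, 75.8%, 83.8% and 86.4% in D_C, and 59.96%, 82.3%, 80.9% and 83.4% in D_B12. It was the largest share in all 16 libraries, and the groups overlapped, with means of 71.2% ± 23.1, 68.2% ± 18.9, 78.7% ± 8.01 and 76.6% ± 11.2 (SD, n = 4 each). IgM made up 20.7%, 3.45%, 4.89% and 32.1% in ND_C, 6.57%, 14.1%, 11.3% and 22.9% in ND_B12, 7.58%, 12.6%, 9.80% and 8.01% in D_C, and 18.6%, 10.5%, 10.9% and 9.15% in D_B12. The 4 IgG genes together made up 31.3%, 4.86%, 4.17% and 12.8% in ND_C, 3.82%, 9.89%, 25.6% and 31.8% in ND_B12, 22.7%, 10.7%, 5.18% and 4.74% in D_C, and 20.8%, 6.26%, 6.59% and 5.99% in D_B12. Within a group the mice thus differed more than the group means did: the IgG share ran from 4.17% to 31.3% in ND_C. Without D_C 1 the mean IgG share of D_C went from 10.8% to 6.86%, and without ND_B12 4 that of ND_B12 went from 17.8% to 13.1%. The IgD share was 0.124% to 0.466% in the 8 non-diabetic and 0.629% to 1.65% in the 8 diabetic libraries, without overlap, while Ighd itself overlapped and the other heavy chain genes had log2 fold changes below 0. How length is divided out matters for IgM in every group. Dividing gene counts by the union of exons gave mean IgM shares of 23.2%, 22.3%, 17.3% and 21.2% in ND_C, ND_B12, D_C and D_B12. Per transcript length, as above, they were 15.3%, 13.7%, 9.51% and 12.3%.

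**Figure D5:**
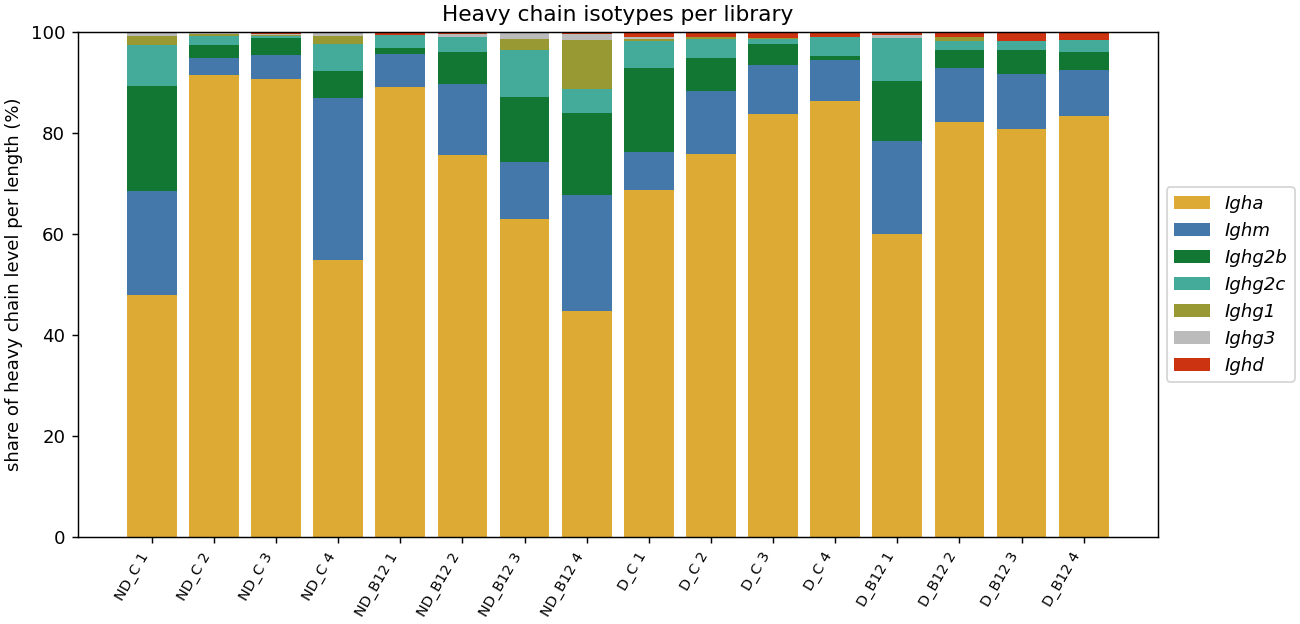
Share of each heavy chain gene in the heavy chain transcripts of each library, per length, in percent, as stacked bars that start at 0 for the 16 libraries in group order. IgA fills from 44.8% of the bar in ND_B12 4 to 91.5% in ND_C 2.

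In the order of levels per length, non-diabetic kidneys had medians of 5348 for Igha, 899 for Ighm, 333 for Ighg2b, 186 for Ighg2c, 47.2 for Ighg1, 34.7 for Ighg3 and 15.4 for Ighd (normalized counts per kb). Each gene lay above the next in 8, 6, 7, 7, 5 and 6 of 8 libraries, so only Igha was separated from its neighbour in every mouse. In diabetic kidneys the medians were 1207 for Igha, 166 for Ighm, 66.5 for Ighg2b, 42.3 for Ighg2c, 18.9 for Ighd, 1.82 for Ighg1 and 0.564 for Ighg3. Here Ighd stood above Ighg1 in all 8 libraries, against below it at the median in the non-diabetic ones.

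Kappa made up 86.5% to 97.5% of light chain transcripts per length in the 16 libraries. The kappa to lambda ratio was 18.4, 38.8, 12.1 and 13.9 in ND_C, 23.5, 16.8, 25.1 and 15.5 in ND_B12, 20.2, 7.97, 11.5 and 17.9 in D_C, and 6.42, 7.83, 9.34 and 16.3 in D_B12. The mean ratios were 20.8 ± 12.3, 20.2 ± 4.77, 14.4 ± 5.64 and 9.98 ± 4.399 (SD, n = 4 each). With lambda as Iglc1 plus Iglc2 the groups overlapped in each comparison, among the treated through D_B12 4 and ND_B12 4. D_B12 4 had 46.2 normalized counts of Iglc3 and 19.4 of its near copy Iglc2. With Iglc3 and Iglc4 added to lambda, the means were 18.7 ± 11.0, 17.7 ± 4.41, 12.9 ± 4.18 and 7.00 ± 1.42 (SD, n = 4 each). The treated groups then did not overlap. The ratio rests on lambda genes of low count and, for Iglc2, of near-identical copies. Light chain transcripts stood to heavy chain transcripts, per length, as 0.8001 to 1.20 in all 16 libraries, a narrow band beside the 21.4-fold range of Igkc. Iglc1 exceeded Iglc2 by 1.36 to 8.88 times per length.

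The other genes of antibody-making cells showed 1 call in the list of plasma cell markers. Jchain, which links IgA and IgM into polymers, had 3138, 1532, 1356 and 805 in ND_C, 690.0, 1597, 2429 and 689 in ND_B12, 708, 198, 341 and 509 in D_C, and 272, 252, 278 and 351 in D_B12, with no overlap in either comparison. It fell by 2.09 averaged over the treatments (SE 0.33, edgeR adjusted p = 0.0116). Of the 10 plasma cell markers tested, of 11 in the list, 9 were lower averaged over the treatments. Jchain was the 1 called by edgeR, 6 were at an unadjusted p below 0.05, and DESeq2 called 5. Over all genes edgeR called 2.16% lower. Mzb1, a chaperone of IgM, ranged from 20.9 to 155, Tnfrsf17, the BCMA receptor, from 0 to 12.9, and Sdc1, which kidney epithelium also expresses, from 570 to 1149. Pou2af1, an activator of antibody genes, had a log2 fold change of −1.90 (edgeR adjusted p = 0.0510). The plasma cell markers summed to group means of 9647, 9083, 8084 and 7347 in ND_C, ND_B12, D_C and D_B12. Most of each sum came from listed genes other than Jchain, Mzb1, Tnfrsf17 and Sdc1, so the sums mainly reflect those other genes.

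Of 14 B cell markers, 0 were called averaged over the treatments by edgeR, with 2 at an unadjusted p below 0.05 and 1 by DESeq2. On that average 12 of the 14 were lower, and the median log2 fold change was −0.49. Over all genes edgeR called 2.16% lower, so 0 of 14 is near that share. The sums of the 14 markers overlapped, from 1329 to 2210 in ND_C and from 1149 to 1951 in D_C. Ms4a1, which encodes CD20, ran from 5.02 to 74.7 and Cd79a, a chain of the B cell receptor complex, from 15.8 to 100.3 over all libraries. These ranges are not split by group and do not show whether the groups overlapped. Membrane Ighm and Ighd overlapped between diabetic and non-diabetic kidneys. Of 12 genes of recombination and class switching 8 were tested. Averaged over the treatments 0 of the 8 were called by edgeR, also near the share over all genes. At an unadjusted p below 0.05 there were 0, and DESeq2 called 0. Rag1, which cuts antigen receptor genes, was at 0 in all 16 libraries.

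Among 10 tested genes that bind or carry antibody, 3 were called lower averaged over the treatments, where 2.16% of all genes were called lower. These were Fcgr2b, the inhibitory IgG receptor (−0.42, edgeR adjusted p = 0.0357), Fcgr4, an activating IgG receptor (−0.76, edgeR adjusted p = 0.0381), and Fcamr, a receptor for IgM and IgA (−1.04, edgeR adjusted p = 0.0396). Pigr, which carries polymeric IgA and IgM across epithelium, had a log2 fold change of −0.52 (edgeR adjusted p = 0.105). It stood at 30775 in D_C 1 and at 11426 to 15518 in the other diabetic libraries, so that D_C 1 was set apart in a gene of epithelial cells too.

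Some markers of other cells were called as well, and their part in the result was not tested. Of the 25408 genes, 548 (2.16%) were called lower and 219 higher on the average over treatments. Averaged over the treatments, all 12 T cell markers were lower and 2 were called, Cd3g (−1.18, edgeR adjusted p = 0.0475) and Cd28 (−0.95, edgeR adjusted p = 0.0376). The T cell sums had means of 784, 586, 513 and 461 in ND_C, ND_B12, D_C and D_B12. Of 10 macrophage markers 2 were called lower, the complement genes C1qa (−0.47, edgeR adjusted p = 0.0382) and C1qc (−0.41, edgeR adjusted p = 0.0337). By edgeR and on the same average, 0 of 11 homing genes, 0 of 8 lymph node stroma genes, 0 of 10 adipocyte genes and 0 of 6 red cell genes were called, with 1, 0, 0 and 2 at an unadjusted p below 0.05 and 1, 0, 0 and 1 by DESeq2. In lists of 6 to 11 genes, 0 calls is near the share over all genes. Of 10 kidney genes Aqp2, the water channel of the collecting duct, rose by 1.14 (edgeR adjusted p = 0.0348) and Slc34a1, the phosphate transporter of the proximal tubule, fell by 0.25 (edgeR adjusted p = 0.0178).

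As a description over the 16 libraries, and among 25281 tested genes that are not immunoglobulin genes, the order of Igkc was most like that of Jchain (Spearman rho 0.985), Tlr9 (0.935), Cd28 (0.929), Gm7931 (0.924) and Tbxas1 (0.924). The order of Ighm was most like that of Cplx2 (0.891), Tnfrsf13b, which encodes the BAFF receptor family member TACI (0.882), Jaml (0.865), Spp2 (0.862) and Slc34a3 (0.862). Among the 10 genes themselves rho was highest between Igha and Igkc (0.938). Ighd ranked unlike the rest, with rho from −0.087 with Ighg3 to 0.376. The libraries share the split by diabetes and date, so these values are not independent of it.

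Of the constant genes outside the 10, Iglc3 ranged from 0.889 to 46.2 normalized counts and its copy Iglc2 shares reads with it. Ighe, the IgE gene, was found only in ND_C 2, with 7 counts, and Iglc4 only in ND_C 1, with 3 counts.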

How the data were processed

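Total kidney RNA of 16 mice was sequenced as 50-bp read pairs, and each library is a separate animal by its label. The authors aligned the reads with STAR to GRCm39 with GENCODE vM35 and deposited estimated counts per gene and per transcript from StringTie and its prepDE script. These are whole numbers, and gene totals equalled summed transcript totals in 16 libraries. The read length given to prepDE is not given in the sources used here. Transcript forms, lengths and coordinates were taken from GENCODE vM39 on the same build.

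The 10 genes and the lists were chosen with earlier results of these data known. Lists were markers of B cells, plasma cells, T cells, macrophages, lymph node stroma, adipocytes, red cells and kidney, and genes of recombination, antibody receptors and homing, and called list members and defining markers are named, except 1 marker that is not reported here. Genes with at least 100 counts in all (25408) were fitted in edgeR 4.0.16 (R 4.3.3, glmQLFit, TMM, 4 group means, 12 residual degrees of freedom, common coefficient of variation 0.201), adjusted by Benjamini-Hochberg over all genes at 0.05. DESeq2 1.42.0 was an alternative. The fit was tested on simulated data that gave every gene the same spread. That test therefore does not cover the wide spread of the IgG genes between mice. Shares are per-length descriptions, the secreted share only where at least 20 transcript counts were present. No libraries were duplicates (r 0.966 to 0.982 over 120 pairs). Tables were handled in Python 3.11.15 with pandas 2.3.3 and scipy 1.17.1.

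Library totals were 65271308 to 91771136 counts, and counting error weighs more on Ighg1, Ighg3, Iglc2 and Ighd, which have few counts, than on the other genes. Other normalizations, filters, covariates and left-out libraries were tried.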

Additional observations from a re-analysis of the deposited data

Results flagged for a closer look

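In groups of 4 libraries, 16 of 96 groups of values had 1 library far from the other 3 by Dixon's test. ND_C 1 stood high in 6 of them: 365 normalized counts of Ighg1, 4484 of Ighg2b, 1741 of Ighg2c, 134 of Ighg3 and 11164 of Igkc, and a 20.8% Ighg2b share of heavy chain transcripts. D_C 1 stood high for Ighg2b (697) and Ighg3 (11.9). D_B12 1 stood high for Ighg3 (16.0), for the Ighg2b share (11.8%), the Ighg2c share (8.52%) and the IgG share (20.8%), and low for the Igha share (59.96%). ND_B12 3 stood high for Ighg2c (1276) and ND_B12 2 for Ighd (40.7). ND_B12 1 had a secreted share of Ighm of 49.5%, where the other ND_B12 libraries had 80.2% to 86.5%. The IgG genes and shares account for 12 of the 16.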

How the results depend on the processing

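Called genes among the 10, averaged over treatments, were 9 with DESeq2, 6 with upper-quartile scaling or filterByExpr, 5 with no filter or the replicate block, 9 without D_C 1 and ND_B12 4, and 0 with the date covariate. The untreated 2 became 4 with DESeq2, 3 with filterByExpr, 5 without that pair, and 0 with no filter, the date, the replicate block or the groups alone. The B12-treated 2 became 3 with DESeq2 and 0 with upper-quartile scaling, no filter, the date or the replicate block and 1 with the groups alone. Leaving out 1 library gave 0 to 4 untreated, 0 to 2 B12-treated and 4 to 9 averaged. Calls over all 25408 genes changed with the setting too. Averaged, 548 were called lower by the main edgeR fit, 1124 with DESeq2 and 434 with upper-quartile scaling. In the same order these were 185, 740 and 237 in untreated kidneys and 143, 708 and 10 in B12-treated kidneys. Replicate numbers did not pair samples, since 3 of 24 pairs had r over 0.1 (−0.183 to 0.168) and 5 of 16 libraries correlated best with their own number. By exon union the Igha share was lower in every group, at 62.4%, 58.2%, 67.9% and 65.2% in ND_C, ND_B12, D_C and D_B12. In the main setting it was 71.2%, 68.2%, 78.7% and 76.6%. The Ighm share by exon union was higher in every group, at 23.2%, 22.3%, 17.3% and 21.2% in the same order. With no length division it was 19.3%, 17.9%, 13.4% and 16.8%. The cause of these changes was not tested.

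Log2 fold changes that changed sign were of genes or comparisons with no call, apart from Ighg3. With the date they were 1.80 and 0.70 for diabetes under B12 in Ighg3 and Ighg2b, 0.47 and −0.26 averaged in Ighg3 and Ighd, 0.31 and 0.43 for B12 without diabetes in Ighg2b and Ighg2c, and 0.24, 0.93, 1.75, 1.05 and 0.85 for B12 in diabetes in Ighm, Ighg1, Ighg2b, Ighg2c and Iglc2. With the replicate block they were 0.046, 0.79 and 0.72 for B12 without diabetes in Ighd, Ighg2b and Ighg2c, and −0.055 and 0.12 for B12 in diabetes in Iglc1 and Iglc2. Without D_C 1 and ND_B12 4 Ighd was −0.14 untreated and −0.17 averaged, Ighg1 −0.49 for B12 without diabetes, and Ighg1, Ighg2b, Ighg2c and Iglc2 0.26, 0.34, 0.0096 and 0.70 for B12 in diabetes. Without 1 library, diabetes gave Ighd −0.15 to 0.85 untreated, −0.43 to 0.091 treated and −0.13 to 0.365 averaged. B12 without diabetes gave Ighm −1.16 to 0.33, Ighd −0.32 to 0.47, Ighg1 −0.49 to 1.95, Ighg2b −1.69 to 1.66, Ighg2c −1.67 to 1.55, Ighg3 −0.52 to 1.76, Igkc −1.01 to 0.19 and Iglc1 −1.01 to 0.028. B12 in diabetes gave Ighg1 −1.40 to 0.27, Ighg2b −1.94 to 0.35, Ighg2c −1.66 to 0.021, Ighg3 −1.69 to 2.77, Iglc1 −0.31 to 0.14 and Iglc2 −0.29 to 0.71.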
